A study of Mus musculus with 147 samples.

Results

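Renin is stored in dense granules of juxtaglomerular cells that are related to lysosomes: they are acidic and carry lysosomal enzymes and membrane proteins. Soluble lysosomal enzymes are tagged with mannose 6-phosphate in the Golgi, carried by mannose 6-phosphate receptors, and activated after a proton pump acidifies the compartment. Prorenin can carry the same tag, and cathepsin B can cleave prorenin in vitro. The 41 genes described here, of 35438 in the count tables, were taken by symbol from a fixed list of lysosomal proteases, glycosidases, lipid-handling proteins, membrane proteins, mannose 6-phosphate receptors, proton pump subunits and the transcription factor *Tfeb*. All 41 symbols were found in the tables of both genotypes. The comparison asked whether cells that are programmed to make renin but lack the gene keep the transcripts of the granule machinery, and whether these transcripts followed *Ren1* among WT cells.

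YFP-positive cells were sorted from dissociated kidney cortex of adult C57BL/6 mice and profiled one per well on the Fluidigm C1 System with SMART-Seq v4, a full-length chemistry without molecular identifiers. WT renin cells were *Ren1c*+/+ *Ren1c*-YFP (51 wells, which the methods trace to 4 mice captured in 1 run), and Renin-null cells were *Ren1c*-/- *Ren1c*-YFP (96 wells, 12 mice, 4 captures, sequenced as the libraries YFP1 and YFP2 of 48 wells each). In both, YFP was driven by the 5′ regulatory sequence of *Ren1c*, so the cells are those in which this sequence was active, with or without renin. Mice of both sexes were used, and every carrier of the deleted allele was given saline under the skin as a newborn, for 5 days in a row. No well is assigned to a mouse, so a genotype counts as 1 sample and the genotypes were compared without a test. Effects of capture, sequencing library and saline cannot be told apart from that of the genotype.

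The label of the cells was checked first. *Ren1* had counts in 51 of 51 WT wells and a summed level of 96023 counts per 1000000 counts (CPM), against 0.135 CPM in Renin-null wells. *Akr1b7*, an established marker of renin cells, had counts in 51 of 51 WT wells and 94 of 96 Renin-null wells. Its summed level, like that of *Ren1*, was lower in Renin-null wells by log2 1 or more. Only 1 of these 2 genes, *Ren1*, was lower by that much in both Renin-null libraries. The 2 genes together, nearly all *Akr1b7*, stood at 1700 CPM in YFP1 and 2271 CPM in YFP2. Per 1000000 counts other than mitochondrial and *Ren1* counts, *Akr1b7* ran from 13.3 to 30394 in WT wells. In Renin-null wells it ran from 0 to 11551, so some of these wells held little of the marker. The 6 smooth muscle markers summed to 10732 and 11977 CPM. Counts per well ranged from 26401 to 17124854 (median 1525970) in WT wells and from 3628 to 14505243 (median 4107950) in Renin-null wells. The median share of mitochondrial counts was 60.4% in WT and 12.4% in Renin-null wells. Only 15 WT wells and 57 Renin-null wells passed limits of 100000 counts, 1000 detected genes and no more than 25% mitochondrial counts. These wells, called wells within the limits below, held 75.7% of all WT counts and 89% of all Renin-null counts. Among Renin-null wells, 4 pairs had nearly the same profile (Pearson r of log2(CPM + 1) across genes of 0.974 or more, with 0.896 for the next pair), and 3 of the 4 pairs joined a YFP1 well to a YFP2 well. By the sample titles, YFP1 and YFP2 used the same 48 index pairs, which the WT library used as well, but the wells of 0 of the 4 pairs carried the same index pair. Whether these wells are repeated libraries was not tested. The wells of the 4 pairs held 12.4% of Renin-null counts, and over 50% of the Renin-null counts of *Ctsf*, *Ctss*, *Glb1*, *Gusb* and *Tfeb*, whose ratios are also given with each pair counted once.

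Of these genes, 7 carry in their promoter the 8-base palindrome TCACGTGA, which contains the core of the element that *Tfeb* and its relatives are known to bind in lysosomal promoters. The windows of 30 bases around it are shown because the element is the sequence feature that lysosomal genes are best known to share. They come from RefSeq on GRCm38.p6, 5′ to 3′ on the strand of the gene, with the palindrome in capitals.
Ctsa: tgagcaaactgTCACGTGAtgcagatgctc
Ctsd: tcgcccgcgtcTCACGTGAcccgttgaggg
Gla: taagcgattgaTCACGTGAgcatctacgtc
Mcoln1: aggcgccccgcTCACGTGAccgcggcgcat
Igf2r: gaacgaggacgTCACGTGAgcaggaggcgg
Atp6v0d1: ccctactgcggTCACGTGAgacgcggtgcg
Atp6v1a: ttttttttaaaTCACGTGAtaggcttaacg
The windows lie at chr2:164833749-164833778 (plus strand), chr7:142387908-142387937 (minus), chrX:134601215-134601244 (minus), chr8:3500462-3500491 (plus), chr17:12769737-12769766 (minus), chr8:105566050-105566079 (minus) and chr16:44139373-44139402 (minus), in the order printed. The first base of the palindrome was 4 bases before the annotated start in *Atp6v0d1*, 13 in *Ctsa*, 46 in *Mcoln1*, 49 in *Igf2r*, 99 in *Ctsd*, 132 in *Atp6v1a* and 228 in *Gla*. Promoters of 300 bases (250 before the start and 50 after) were listed for 36 of the 41 genes, and 7 of the 36 (19.4%) held TCACGTGA, against 304 of 27025 genes (1.12%). The shorter CACGTG, which lies within TCACGTGA and reads the same on both strands, was in 14 of 36 (38.9%) and in 8.09% of all genes. A match in a window describes the letters and is not evidence of binding. *Asah1*, *Ctsb*, *Ctsh*, *M6pr* and *Npc1* had no entry in the promoter table.

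Summed over wells, the 41 genes held 4814 CPM in WT against 5832 CPM in Renin-null wells. After mitochondrial and *Ren1* counts were taken out of the denominator, the order turned and the levels lay close, at 6865 CPM in WT against 6544 CPM in Renin-null wells, a scale called nuclear CPM below. The level per well ran from 24.4 (lowest) through 499 (median) to 71678 (highest) nuclear CPM in WT wells, and from 145 through 4575 to 19857 nuclear CPM in Renin-null wells. Most WT wells were thus lower than most Renin-null wells, although the ranges overlapped. Within the limits, the 15 WT wells ran from 499 through 8195 to 17375 nuclear CPM and the 57 Renin-null wells from 476 through 5766 to 19857 nuclear CPM, so the medians stood in the opposite order. The WT wells outside the limits had a median of 299 nuclear CPM. A well had a median of 0 lysosome genes at 100 CPM or more in WT (0 to 13) and of 5 in Renin-null cells (0 to 18), but a median of 6 in both genotypes within the limits. The part of RNA quality in the difference over all wells was not tested beyond these values.

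Gene by gene, 23 of the 41 (56.1%) had a log2 ratio of summed CPM, Renin-null over WT, of 1 or more, 4 (9.76%) of -1 or less, and 14 lay between. The background was similar: of 18720 genes with a ratio, 52.4% were higher by this measure and 18.5% were lower. The median log2 ratio was 1.29 for the 41 genes and 1.17 for all genes, and 21 of the 41 lay above the all-gene median. By summed levels the share of the 41 genes that was higher was near the background, and a log2 ratio near 1.17 is the shift of the median gene in these tables. The picture differed for the difference of mean log2(CPM + 1) over wells, a measure that weights every well alike. By that measure 17 of the 41 (41.5%) were higher by 1 or more and 0 lower, with 31 above the all-gene median, beside 9.03% of all genes higher. Among genes with a mean of at least 10 CPM, 16 of 33 were higher (48.5%), beside 21.9% of 7554 genes. Within the limits the same measure gave 9 of 41 higher (22.0%) and 5 lower (12.2%), beside 5.81% and 6.28% of all genes. Among the genes of at least 10 CPM it then gave 9 of 33 higher (27.3%) and 5 lower (15.2%), beside 13.4% and 14.8%, with medians of 0.03 for the 33 and 0.05 for all. By summed levels within the limits, 21 were higher and 6 lower, with a median of 1.08, beside 51.6% and 20.1% of all genes and an all-gene median of 1.11. Of the 41, 15 were higher by log2 1 or more over WT in both Renin-null libraries, 4 were lower in both, beside 33.3% and 15.8% of 16256 genes with a ratio in both. Opposite signs in YFP1 and YFP2 were found for 5 of 40 (*Ctsb*, *Gla*, *Hexa*, *Neu1* and *Atp6ap1*, 12.5%), beside 24.9% of all genes. One well held over 50% of the counts of 21 of the genes in WT and of 12 in Renin-null cells. With each near-identical pair counted once, 22 were higher (53.7%) and 6 lower (14.6%), beside 52.5% and 18.7% of all genes, with a median of 1.08 beside 1.17 for all genes. *Ctsf* (0.51) then left the higher side, and *Ppt1* (-1.01) and *Tfeb* (-2.33) joined the lower side. TMM scaling, which moved the all-gene median to 0.47, left 17 higher (41.5%) and 10 lower (24.4%), beside 43.1% and 27.2% of all genes.

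**Figure D1:**
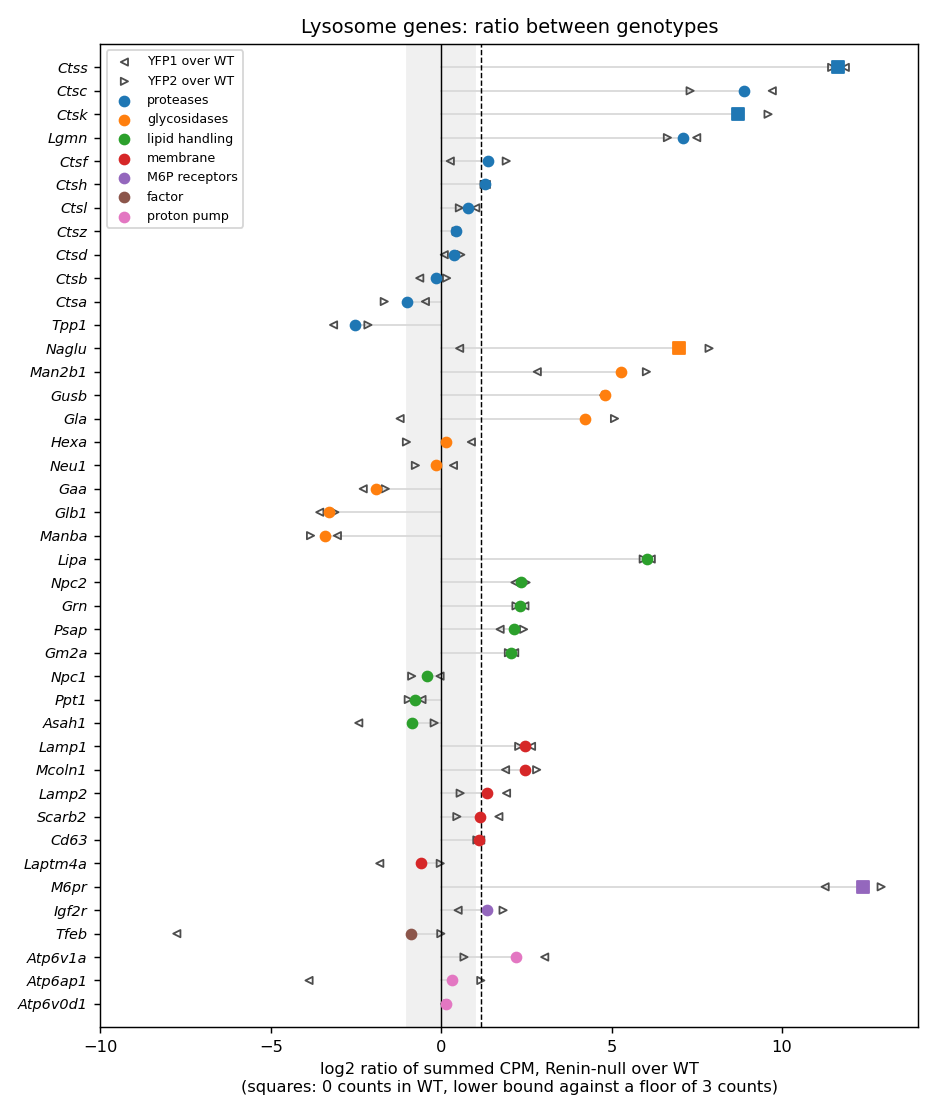
Log2 ratio of summed CPM, Renin-null over WT (x axis), for the 41 lysosome genes (y axis, grouped by role in colour), with open triangles for each Renin-null library over WT and squares where WT held 0 counts. The dashed line is the median of all genes (1.17) and the grey band spans log2 -1 to 1; 21 genes lie to the right of the line, and *Ctsk* has no YFP1 ratio.

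Cathepsins are the main proteases of the lysosome, and as a group 6 of the 12 proteases (50.0%) had a higher level without renin, 1 was lower and 5 lay between, a share near the 52.4% of all genes. Within the limits 5 were higher and 2 lower. *Ctsb* (cathepsin B, chr14:63122462-63145923 on GRCm38) had the highest level per kilobase of transcript of the 41 genes in WT cells and the next to highest in Renin-null cells (361 and 326 CPM per kilobase). Its summed level was 1714 CPM in WT (exact Poisson 95% interval 1708 to 1720) and 1545 CPM in Renin-null wells (1541 to 1549), a log2 ratio of -0.15. Per well, *Ctsb* ran from 0 through 28.9 to 26035 CPM in WT and from 0 through 151 to 13707 CPM in Renin-null cells. In WT the wells fell into separate ranges of raw counts, with 12 wells at 5009 counts or more that held 99.7% of its counts, and 39 wells at 266 counts or fewer. Raw counts depend on the depth of a well, and in CPM the ranges nearly met. The lowest of the 12 wells was at 447 CPM, and the highest of the 39 was at 363 CPM, in a well of 44081 counts. It reached 100 CPM in 15 of 51 WT wells (29.4%) and 50 of 96 Renin-null wells (52.1%), but in 11 of 15 and 38 of 57 wells within the limits (73.3% and 66.7%). All such intervals and floors cover counting error only, since PCR copies are not independent molecules.

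*Ctsd* (cathepsin D, an aspartic protease of the same family as renin) stood at 231 CPM in WT against 299 CPM in Renin-null wells, for a log2 ratio of 0.37 (exact 95% interval 0.36 to 0.39). Its level per well ran from 0 through 0.351 to 2851 CPM in WT and from 0 through 4.02 to 10585 CPM in Renin-null cells, and 70.4% of its WT counts came from 1 well. Within the limits its log2 ratio was -0.55, the opposite sign. *Ctsl* (cathepsin L) was at 350 and 598 CPM (log2 ratio 0.77), *Ctsz* at 74.5 and 101 CPM (0.43), and *Ctsh* and *Ctsf* were low (4.26 and 10.4 CPM, 1.29, and 0.889 and 2.30 CPM, 1.37). Of 13 alternative settings, *Ctsh* was past the threshold in 6 and kept its sign in 10. The near-identical wells held 77.6% of the Renin-null counts of *Ctsf*, and its log2 ratio was 0.51 with each pair counted once and 0.27 in YFP1, no longer past the threshold. *Tpp1* (tripeptidyl peptidase 1) was the protease with the lower level in Renin-null cells, at 590 CPM in WT against 103 CPM in Renin-null wells, for a log2 ratio of -2.53 (-2.54 to -2.51). *Tpp1* was also lower in YFP1 (-3.16), in YFP2 (-2.15) and within the limits (-2.79). It reached 100 CPM in 6 WT wells, all within the limits, and in 11 Renin-null wells, and 52% of its WT counts came from 1 well. *Ctsa*, the carboxypeptidase that stabilizes beta-galactosidase and sialidase, lay at the edge of the threshold, with 250 CPM in WT, 125 CPM in Renin-null cells and a log2 ratio of -0.998 that fell just short of it. Its ratio was past the threshold in YFP2 (-1.67) and within the limits (-1.29), but not in YFP1 (-0.46).

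The largest protease ratios belonged to genes of few wells. *Ctss* (cathepsin S) was at 0 in all 51 WT wells and at 48.7 CPM in Renin-null cells, at least 11.65 higher on the log2 scale against a floor of 3 counts over the genotype. However, 1 of the near-identical pairs, a YFP1 well at 1793 CPM and a YFP2 well at 1354 CPM, held 10135 and 9217 of its 19429 Renin-null counts. Each pair counted once, the bound was 10.83. *Ctsk* (cathepsin K) was also at 0 in WT, at least 8.71 higher in Renin-null wells on the log2 scale, and 99.5% of its Renin-null counts lay in 1 well. *Ctsc* (cathepsin C, which activates serine proteases) was at 0.0758 CPM in WT against 35.4 CPM in Renin-null wells, for a log2 ratio of 8.87 (8.15 to 9.71), with counts in 6 WT and 35 Renin-null wells and ratios of 9.71 in YFP1 and 7.30 in YFP2. *Lgmn* (legumain, which processes cathepsins) was at 0.147 and 20.0 CPM, a log2 ratio of 7.09 (6.57 to 7.67). Both reached 100 CPM in few Renin-null wells, 7 for *Ctsc* and 5 for *Lgmn*, and in 0 WT wells. With 3 of 51 wells taken as an approximate upper limit, not an exact interval, counting alone allows a share of up to 5.88% in this 1 WT capture.

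Markers of other kidney cells also differed between the genotypes. The 12 proximal tubule markers summed to 32.0 CPM in WT (most abundant *Slc34a1*, with *Slc5a2* at 0) and to 503.9 CPM in Renin-null cells (most abundant *Miox*, 115 CPM, none at 0), and 12 of 12 were higher there by log2 1 or more. The 6 podocyte markers summed to 95.9 CPM in WT, where *Podxl* was among those at 0, and to 800 CPM in Renin-null cells, led by *Cdkn1c* at 241 CPM, with 6 of 6 higher. They stood at 171 CPM in YFP1 and 1324 CPM in YFP2, 1 well held 65.8% of the Renin-null sum, and without it the level was 281 CPM with 5 of 6 higher. Fibroblast markers (8 genes) summed to 174 and 1159 CPM (440.3 in YFP1 and 1758 in YFP2). Endothelial markers (8) summed to 179 and 301 CPM, but to 42.9 CPM in YFP1 and 517 CPM in YFP2, and 1 well held 75.5% of the WT sum and 1 well 61.7% of the Renin-null sum. Without these wells the endothelial levels were 47.9 and 118 CPM. Collecting duct markers (8) summed to 3.51 and 44.2 CPM (18.7 in YFP1 and 65.6 in YFP2), with 3 higher and 3 lower. In the 5 Renin-null wells with *Lgmn* at 100 CPM, the proximal tubule markers had a median of 4764 CPM, against 7.90 CPM in the other Renin-null wells. These medians came to 504.6 and 7.90 CPM for the 7 *Ctsc* wells, and 789 and 6.65 CPM for the 12 wells with *Lipa* at 100 CPM. The *Lgmn* wells and the *Ctsc* wells each included a near-identical pair. Genes without a higher summed level could show the same, with 2641 and 7.90 CPM for *Glb1* and 434 and 6.65 CPM for *Neu1*. For *Ctsd* and *Scarb2* the order was reversed (8.56 and 15.6 CPM, and 7.39 and 24.1 CPM). Macrophages are rich in *Ctss* and *Ctsc*. The 12 macrophage markers summed to 2.44 CPM in WT against 14.4 CPM in Renin-null wells (23.4 in YFP1 and 6.90 in YFP2, most abundant *Cd74*, 6.16 CPM), and *Adgre1*, *C1qb*, *C1qc* and *Fcer1g* were at 0 in Renin-null wells. One Renin-null well stood out with 7672 CPM of macrophage markers, and it held *Ctss* at 120 CPM. The near-identical pair with most *Ctss* counts had 0.354 and 0 CPM of macrophage markers. The median of these markers was 0.354 CPM in the 3 wells with *Ctss* at 100 CPM and 1.05 CPM in the other Renin-null wells. For *Ctsc* these medians were 1.75 and 0.851 CPM. Without the 1 WT and 22 Renin-null wells in which markers of macrophages, proximal tubule, podocytes, endothelium and collecting duct summed to over 1000 CPM, 21 genes were higher (51.2%) and 7 lower (17.1%), beside 49.4% and 23.0% of all genes. The log2 ratio of *Lgmn* then came to 3.83, that of *Man2b1* to 2.21, that of *Ctsc* to 8.50, and that of *Ctsf* turned from 1.37 to -5.36. The bound of *Ctss* was 11.95 in the same wells. The part of other cell types in the remaining ratios was not tested.

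Glycosidases strip sugars from glycoproteins and glycolipids, and 4 of the 9 (44.4%) had a higher level without renin, 3 (33.3%) were lower and 2 lay between, beside 52.4% and 18.5% of all genes. *Man2b1* (alpha-mannosidase) was at 1.87 CPM in WT against 72.3 CPM in Renin-null wells, for a log2 ratio of 5.27 (5.12 to 5.42), with counts in 8 of 51 and 53 of 96 wells and ratios of 2.82 in YFP1 and 6.02 in YFP2. *Gusb* (beta-glucuronidase) was at 1.14 and 31.9 CPM, a log2 ratio of 4.80, of which the near-identical wells held 85.5% of the Renin-null counts (3.94 with each pair counted once). *Naglu* was at 0 in WT and at 1.93 CPM in Renin-null cells, at least 6.99 higher on the log2 scale, and 73.2% of it lay in 1 well. Against the same floor the *Naglu* bound was 0.54 in YFP1 and 7.86 in YFP2. *Gla* (alpha-galactosidase A) had a log2 ratio of 4.22 (0.712 and 13.3 CPM), but it was lower in YFP1 (-1.21) and 87.9% of its Renin-null counts came from 1 well. The glycosidases that were lower were *Manba* (beta-mannosidase, 101 and 9.44 CPM, log2 ratio -3.42), *Glb1* (beta-galactosidase, 73.2 and 7.41 CPM, -3.31, or -3.77 with each pair counted once) and *Gaa* (acid alpha-glucosidase, which breaks down glycogen, 80.2 and 21.5 CPM, -1.90). The same WT well held 74.8% of the WT counts of *Manba* and 85.5% of those of *Gaa*, and another WT well held 99.1% of those of *Glb1*. *Hexa*, a subunit of beta-hexosaminidase, was at 19.7 and 21.9 CPM (0.15), and the sialidase *Neu1* at 6.71 and 6.08 CPM (-0.14). *Neu1* had counts in 17 of 51 WT and 91 of 96 Renin-null wells. Most of its WT counts came from 1 WT well of 12216332 counts, at 106 CPM, so its near-equal sums rest on that well. With the highest well of each genotype left out, *Manba* stood at -2.17 and *Gaa* at -0.20, and *Glb1* turned to 2.70 and *Neu1* to 4.09. *Neu1* kept its negative sign within the limits (-0.79) and without wells rich in other cell markers (-1.89).

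Among the proteins that handle lipids, 5 of 8 (62.5%) were past log2 1 on the Renin-null side, beside 52.4% of all genes, and the other 3 had lower summed levels in Renin-null cells without reaching log2 -1. *Gm2a*, the activator that presents gangliosides to hexosaminidase, stood at 96.1 CPM in WT against 400 CPM in Renin-null wells, for a log2 ratio of 2.06 (2.04 to 2.08). Per well it ran from 0 through 0.177 to 594 CPM in WT. In Renin-null cells it ran from 0 through 28.5 to 13180 CPM, the last in the well with 7672 CPM of macrophage markers. It reached 100 CPM in 4 of 51 WT wells (7.84%, exact Clopper-Pearson 95% interval 2.18 to 18.9%) and in 43 of 96 Renin-null wells (44.8%, 34.6 to 55.3%), intervals that cover the counting of wells and not the spread between mice or captures. Within the limits the counts were 4 of 15 (26.7%) and 32 of 57 (56.1%), and the medians were 5.09 and 165 CPM, so the medians kept their order within the limits while the ranges overlapped. *Lipa* (lysosomal acid lipase) was at 0.829 and 54.4 CPM, a log2 ratio of 6.04 (5.82 to 6.27), with counts in 5 WT and 44 Renin-null wells. *Npc2*, which binds cholesterol, had a log2 ratio of 2.35 (13.5 and 68.8 CPM), progranulin (*Grn*) of 2.32 (10.7 and 53.1 CPM) and *Psap*, the precursor of the saposins, of 2.14 (17.8 and 78.4 CPM). All 5 were past log2 1 in YFP1, in YFP2 and within the limits. *Npc1*, the membrane partner of *Npc2*, was at 12.3 and 9.16 CPM (-0.43), the palmitoyl thioesterase *Ppt1* at 144 and 84.4 CPM (-0.77) and acid ceramidase (*Asah1*) at 122 and 67.9 CPM (-0.84). Within the limits *Asah1* was past the threshold on the lower side (-1.09), and *Npc1* (-0.72) and *Ppt1* (-0.59) kept their sign. Most WT counts of both *Npc1* and *Ppt1* came from 1 WT well, at 162 and 1856 CPM. With the highest well of each genotype left out, *Npc1* turned to 1.145 and *Ppt1* to 0.68, while *Asah1* stayed at -0.84. The lower summed levels of *Npc1* and *Ppt1* thus rest on that well.

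The membrane proteins line the lysosome and its granule relatives. Of these 6 genes, 5 (83.3%) were past the threshold on the Renin-null side, beside 52.4% of all genes. The count fell to 3 of 6 within the limits (50.0%, beside 51.6% of all genes), and 3 of 6 were past it in both Renin-null libraries, since *Lamp2* (0.55) and *Scarb2* (0.46) fell short in YFP2. *Cd63*, a tetraspanin of lysosomes and secretory granules, had the highest level per kilobase of the 41 genes in Renin-null cells, at 528 CPM per kilobase against 247 in WT. Its summed level was 262 CPM in WT against 561 CPM in Renin-null wells, for a log2 ratio of 1.10 that lay below the all-gene median of 1.17. Per well, *Cd63* ran from 0 through 2.90 to 1720 CPM in WT and from 0 through 164 to 2294 CPM in Renin-null cells, and it reached 100 CPM in 10 of 51 (19.6%) and 50 of 96 wells (52.1%). Within the limits the shares were 53.3% and 70.2%, with medians of 158 and 290 CPM. *Lamp1* was at 21.3 and 117 CPM, a log2 ratio of 2.46 (2.41 to 2.50), and *Lamp2* at 199 and 500 CPM, a log2 ratio of 1.33. Both are the heavily glycosylated proteins that cover the inner face of the membrane. *Lamp2* was one of the genes that went the other way by share within the limits, with 100 CPM in 7 of 15 WT and 21 of 57 Renin-null wells. *Scarb2*, which carries glucocerebrosidase, had a log2 ratio of 1.15 and the calcium channel *Mcoln1* one of 2.45 at a low level (2.94 and 16.1 CPM), while *Laptm4a* was at -0.59.

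**Figure D2:**
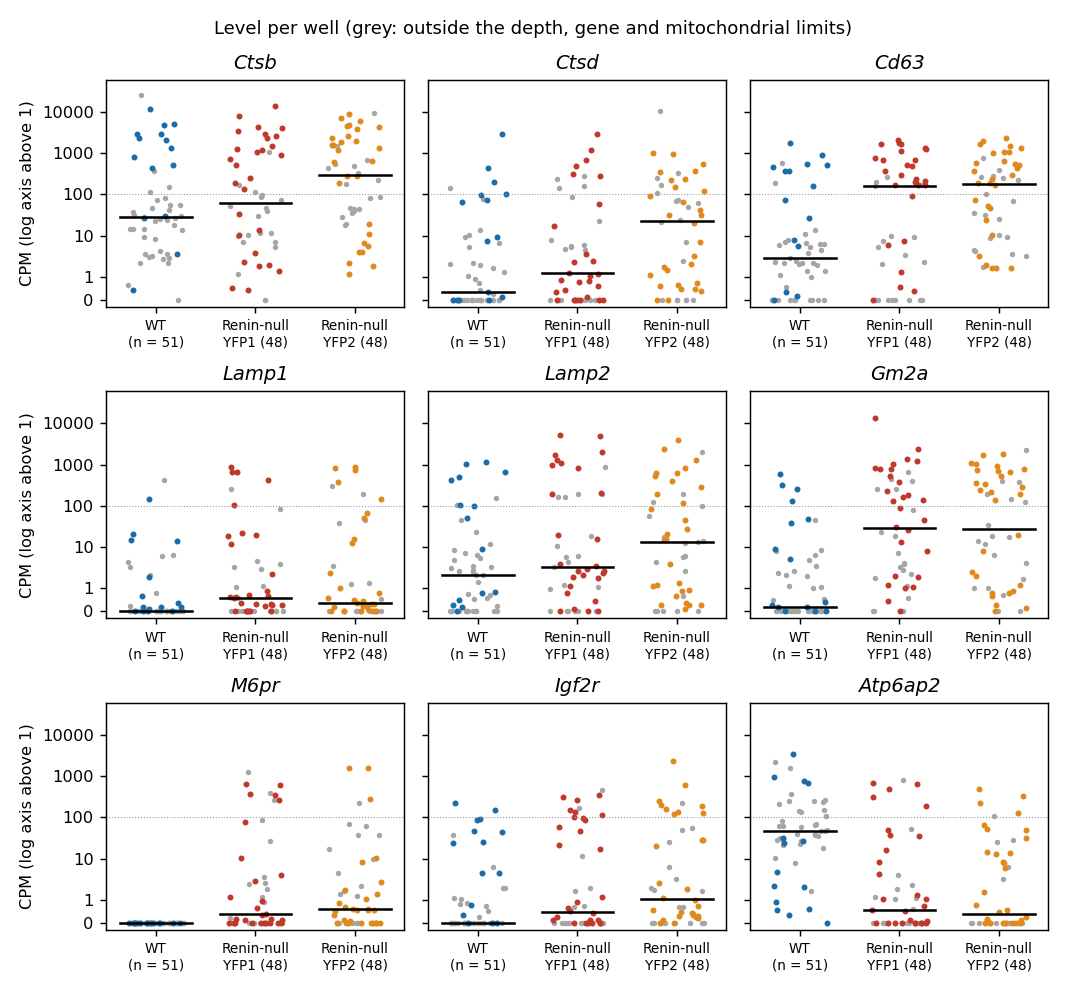
CPM per well (y axis, log above 1) of 9 genes in 51 WT wells, 48 YFP1 wells and 48 YFP2 wells, with a bar at the median of each set, a dotted line at 100 CPM, and grey points for wells outside the limits. *M6pr* is at 0 in every WT well, *Cd63* and *Gm2a* reach 100 CPM in more Renin-null wells, and *Atp6ap2* is the gene with the higher median in WT (47.5 CPM).

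Both mannose 6-phosphate receptors, which carry tagged enzymes from the Golgi, had higher summed levels in Renin-null cells. *M6pr*, the cation-dependent receptor (chr6:122308720-122317680 on GRCm38), had 0 counts in all 51 WT wells, a limit of 0.0152 CPM at 3 counts, and 32042 counts (80.3 CPM) in Renin-null wells, at least 12.37 higher on the log2 scale. It had a count in 62 of 96 Renin-null wells and reached 100 CPM in 12 of them, and it was at 37.2 CPM in YFP1 and 116 CPM in YFP2. One well held 42.0% of its counts, the near-identical wells held 0.312%, and the bound without the wells rich in other cell markers was 10.41. Of 3335 genes with a count in at least 48 Renin-null wells, 7 were at 0 in every WT well, *M6pr* together with *Cp*, *Crispld2*, *Efemp1*, *Gem*, *Hax1* and *Il6*. These genes were chosen by the genotype in which *M6pr* is high, so the count only describes the set. The reverse count, for genes at 0 in Renin-null wells, is not given. The tables of the genotypes come from separate files, and whether library or quantification has a part in the zeros was not tested. *Igf2r*, the cation-independent receptor, which also binds insulin-like growth factor 2, was at 38.4 and 98.2 CPM, a log2 ratio of 1.36 (1.32 to 1.39). The ratio was 0.50 in YFP1 but 1.81 in YFP2. Its level per well ran from 0 through 0 to 225 CPM in WT and from 0 through 0.707 to 2285 CPM in Renin-null cells, and within the limits its median was higher in WT (23.7 and 1.10 CPM).

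*Tfeb* was barely detected, with counts in 3 WT and 6 Renin-null wells and summed levels of 1.19 and 0.647 CPM. A single WT well held 99.2% of its WT counts, so its log2 ratio of -0.88 describes single wells. The proton pump subunits *Atp6v0d1* and *Atp6ap1* were near level (29.8 and 33.1 CPM, log2 ratio 0.15, and 90.3 and 113 CPM, 0.32), and *Atp6v1a*, the catalytic subunit, was at 27.8 and 128 CPM (2.20). The ratio of *Atp6v1a* was 3.04 in YFP1 but 0.67 in YFP2, short of the threshold, and 1 well held 56.3% of its Renin-null counts. For *Atp6ap1* the libraries stood far apart, at 6.14 CPM in YFP1 and 202 CPM in YFP2, and 67.6% of its Renin-null counts came from 1 well. The 7 genes with TCACGTGA in the promoter did not share a direction, with log2 ratios of -0.998 (*Ctsa*), 0.15 (*Atp6v0d1*), 0.37 (*Ctsd*), 1.36 (*Igf2r*), 2.20 (*Atp6v1a*), 2.45 (*Mcoln1*) and 4.22 (*Gla*).

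The share of wells at 100 CPM or more was larger in Renin-null than in WT cells for 37 of the 40 genes that reached this level in any well, beside 81.1% of 12226 genes. At a limit of 1 count it was larger for 30 of 41, beside 74.6% of 22953 genes, and at 10 counts for 35 of 41, beside 80.6% of 17129 genes. Within the limits it was larger for 22 of 38, beside 63.2% of 11179 genes. At 1 count in wells thinned to 62000 total counts it was larger for 36 of 41, beside 77% of 16569 genes. This left out 2 WT and 13 Renin-null wells, and it did not match the counts that are not mitochondrial. How the lysosome genes stood against all genes thus varied with the limit, the depth and the wells used.

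**Figure D3:**
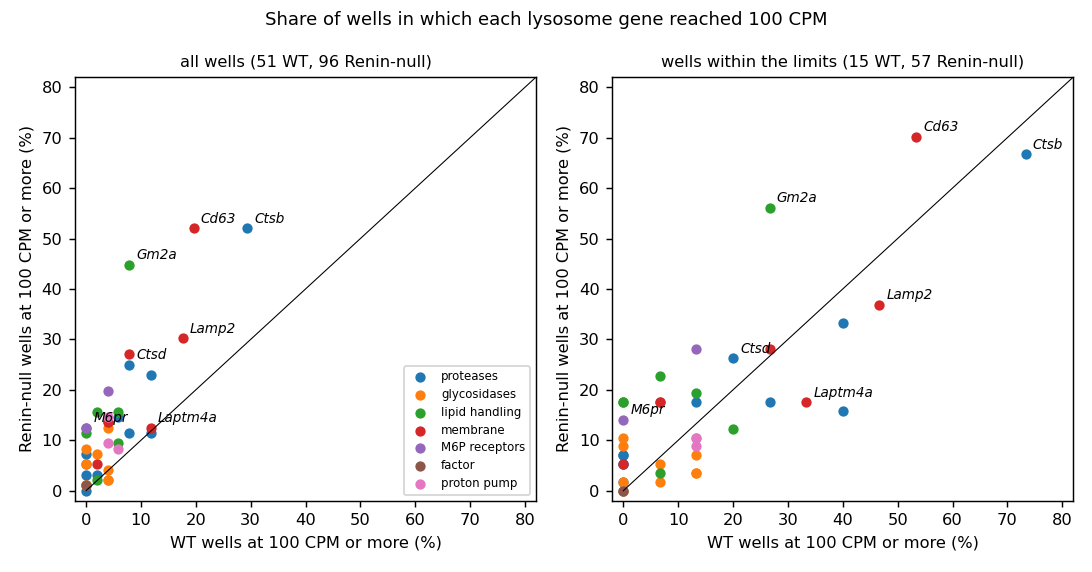
Percent of Renin-null wells (y axis) against percent of WT wells (x axis) in which each of the 41 genes reached 100 CPM, for all wells (left) and for wells within the limits (right), with the line of equal shares. On the left 37 genes lie above the line; on the right 22 do, with *Cd63* and *Gm2a* above it and *Ctsb*, *Lamp2* and *Laptm4a* below it.

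A wider list of 115 further lysosome genes was read in the same way: 50 of 111 with a ratio were higher (45.0%), 24 were lower (21.6%), beside 52.4% and 18.5% of all genes, and the median was 0.78, below the all-gene median. Of the 18 other proton pump subunits with a ratio, 4 were higher (22.2%) and 6 lower (33.3%). Of the 32 genes of lysosome regulation and granule biogenesis 19 were higher (59.4%) and 6 lower (18.8%), shares near those of all genes. Among genes with a mean of at least 10 CPM, the highest ratios belonged to *Tfec*, a relative of *Tfeb*, the SNARE protein *Vamp7* and the potassium and proton channel *Tmem175*. These were at 0 in WT and at 40.3, 35.6 and 21.4 CPM in Renin-null cells, at least 11.38, 11.20 and 10.46 higher on the log2 scale. The sulfatase *Arsg* was also among the highest (3.42 and 105 CPM, 4.94). The lowest were *Hyal2* (51.2 CPM in WT and 3 counts in Renin-null cells, log2 ratio -12.73, 95% interval -15.01 to -11.19, with 99.5% of WT counts in 1 well), the transporter *Abca2* (-5.12), the pump subunit *Atp6v0a1* (-4.07), the acid phosphatase *Acp2* (276 and 16.8 CPM, -4.04) and the SNARE protein *Vamp2* (42.7 and 3.25 CPM, -3.71). *Lyst*, which controls the size of lysosomes and related granules, was at 56.1 and 83.3 CPM (0.57).

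*Atp6ap2* is the prorenin receptor and a pump accessory protein. Its summed level was 171 CPM in WT against 76.9 CPM in Renin-null wells, for a log2 ratio of -1.15 (-1.17 to -1.13). It had counts in 50 of 51 WT wells but in 55 of 96 Renin-null wells, and its level per well ran from 0 through 47.5 to 3527 CPM in WT and from 0 through 0.529 to 829 CPM in Renin-null cells. Its 3 highest WT wells, all within the limits, held 81.9% of its WT counts (11960, 7904 and 7835 counts), and with the highest well of each genotype left out the log2 ratio was -0.94, no longer past the threshold. The median was 79 counts in the 36 WT wells outside the limits (1 to 1102) and 31 counts in the 15 within them (0 to 11960). In CPM that made a median of 60.3 outside and 4.77 within the limits, where the Renin-null median was 1.03 CPM.

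Within WT cells the question was whether the granule genes followed renin. *Ren1* itself spanned from 740 through 45837 to 1100810 nuclear CPM, which can pass 1000000 because *Ren1* is not in the denominator, a wide range. Over the 51 WT wells, Spearman's rho with *Ren1* had a median of 0.03 for the 28 lysosome genes with a count in at least 20% of WT wells, and a median of 0.03 for all 6716 such genes. The summed level of the 41 genes had a rho of 0.005 with *Ren1*, and of 0.004 over the 15 wells within the limits. *Akr1b7* had a rho of 0.43 with *Ren1* in the same wells, and of 0.90 within the limits. These wells share 1 capture, and their depth and mitochondrial share had rho values of 0.07 and -0.16 with *Ren1*. The summed lysosome level moved instead with the mitochondrial share (rho -0.69) and depth (0.43) over all WT wells, and with them by -0.21 and -0.34 within the limits.

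By gene, *Lamp2* had the highest rho with *Ren1* (0.30), above 99% of the 6716 genes, and its value lay between 0.24 and 0.42 in the 6 other ways of computing it. It was not the highest in all of them: within the limits *Atp6v0d1* (0.37), *Lamp1* (0.34), *Psap* (0.33), *Gm2a* (0.31) and *Ctsb* (0.30) lay above its 0.29, and in thinned wells *Atp6v0d1* did (0.29 against 0.26). Over all wells it was followed by *Asah1* (0.18), *Atp6v0d1* (0.17), *Ctsb* (0.14) and *Cd63* (0.12), and the lowest values were those of *Mcoln1* and *Ctsd* (both -0.12) and *Ppt1* (-0.09). None of the 28 reached 0.5, in all wells or in the 15 wells within the limits. *Atp6ap2*, which is on the wider list, had a rho with *Ren1* of 0.11 over all wells, 0.55 within the limits and -0.004 in thinned wells. Among themselves, over wells within the limits and genes with counts in at least 50% of them, the lysosome genes had a median pairwise rho of 0.12 in Renin-null cells (406 pairs, 57 wells), beside 0.09 for all genes. The closest pairs there were *Lamp2* with *M6pr* (0.56) and *Ctsd* with *Laptm4a* (0.53). In the 15 WT wells the median was 0.10 (300 pairs), beside 0.09 for all genes.

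**Figure D4:**
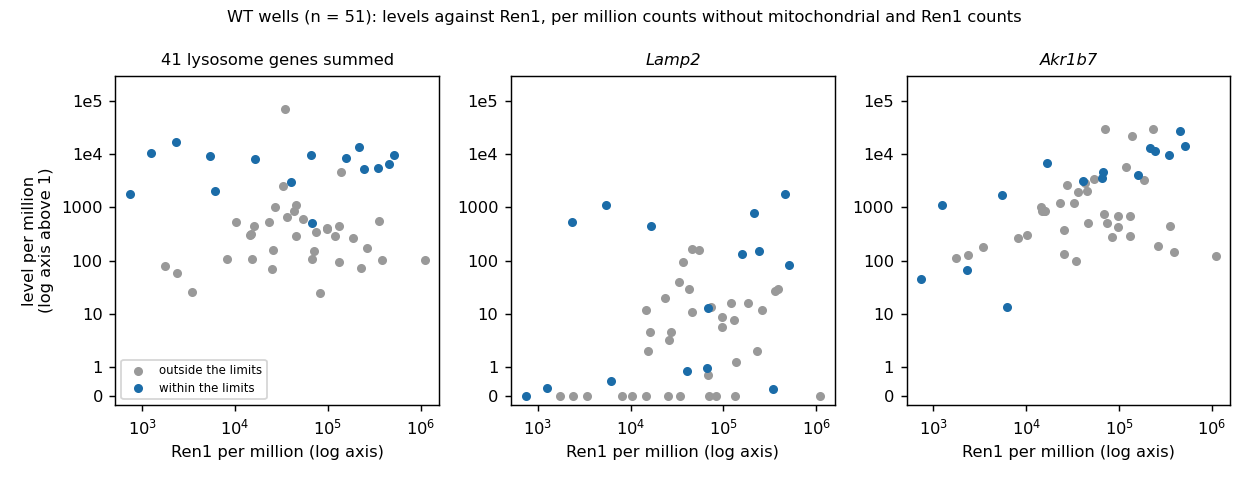
Nuclear CPM, scaled without mitochondrial and *Ren1* counts (y axis, log above 1) against *Ren1* on the same scale (x axis, log) in 51 WT wells, for the 41 lysosome genes summed, for *Lamp2* and for *Akr1b7*, with wells within the limits in blue. Over the 51 wells rho is 0.005 for the summed level, 0.30 for *Lamp2* and 0.43 for *Akr1b7*, whose rho is 0.90 within the limits.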

How the data were processed

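Single sorted cells were profiled in 51 WT and 96 Renin-null wells. The authors deposited expected counts per gene and well, made from trimmed reads with Salmon and tximport (lengthScaledTPM). The submitters' processing notes name FastQC 0.11.5, Trimmomatic 0.39, Salmon 0.11.2, GRCm38.p6 and mm10. These estimated counts carry a correction for transcript length and are not scaled for depth. They were rounded per well, summed per genotype and scaled to CPM. Ratios used a floor of 3 counts for a genotype at 0, no ratio where both held 3 counts or fewer, and exact conditional intervals at 95%. The threshold was a log2 ratio of 1 either way. The mitochondrial share covered 13 genes. Coordinates and lengths (median of coding transcripts) are from GENCODE on GRCm38. No doublet caller was run, since wells were inspected by eye.

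The 41 genes, the wider list and the markers were chosen with earlier results of these data known. Named genes were a fixed set by role, the 5 most abundant, the 6 highest and 6 lowest ratios, the extremes of rho, and *Lyst* and *Atp6ap2*. Others were named after their values were seen. A few results under these rules are not reported here. Alternatives were TMM (edgeR 4.0.16), other denominators and means, thinning to 62000 counts, single libraries, the highest well left out, filtered wells or genes, paired wells counted once and SCTransform (sctransform 0.4.2, Seurat 5.3.0). Leaving out wells rich in other cell markers, other limits for a detected gene, the difference of means within the limits and among genes of at least 10 CPM, and marker sums without their highest well were added after seeing the data. R 4.3.3, Python 3.11.15, numpy 2.4.6, pandas 2.3.3 and scipy 1.17.1 were used, and the scripts were tested on simulated data.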

Additional observations from a re-analysis of the deposited data

How the results depend on the processing

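Under the 13 alternatives, 9 of the 27 genes past the threshold stayed past it in the same direction (*Gusb*, *Man2b1*, *Psap*, *Gm2a*, *Npc2*, *Lipa*, *Grn*, *Lamp1* and *M6pr*), and 22 kept their sign. The same counts were not made over all genes, so they do not set the lysosome genes apart from the background. The sign turned for *Ctsf* without wells rich in other cell markers (-5.36), for *Ctsh* in thinned wells (-0.22), with SCTransform (-0.041) and without wells rich in other cell markers (-0.091), for *Gla* in YFP1 alone (-1.21), for *Glb1* as a difference of mean log2(CPM + 1) (0.045) and with the highest well left out (2.70), and for *Mcoln1* as a difference of means (-0.019). The number of the 41 genes that were lower was 10 with TMM (beside 27.2% of all genes), 8 without mitochondrial and *Ren1* counts (21.8%), 0 as a difference of means (1.90%), 9 in YFP1 (27.4%), 2 with the highest well left out (11.1%) and 7 without wells rich in other cell markers (23.0%).

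The median log2 ratio of the 41 genes was 0.58 with TMM, 0.94 without mitochondrial and *Ren1* counts, 2.03 as a mean over wells of CPM, 0.94 as a difference of means, 1.82 in thinned wells, 0.71 in YFP1, 1.04 in YFP2, 2.19 with the highest well left out, 1.08 within the limits, 1.08 with paired wells counted once, 2.02 with SCTransform and 1.00 without wells rich in other cell markers. The all-gene median ran from 0.12 as a difference of means to 1.84 with the highest well left out. It lay within 0.5 of the median of the 41 genes except as a difference of means, where 31 of the 41 lay above it and 41.5% were higher, beside 9.03% of all genes. For the wider list, 14 of 111 genes were higher and 3 lower as a difference of means, beside 9.03% and 1.90% of all genes. Of the same list, 37 of 111 were lower with TMM (beside 27.2% of all genes), 15 of 104 in thinned wells (13.5%) and 11 of 111 with the highest well left out (11.1%). Its median was 0.077, 0.43, 1.26, 0.25, 1.25, 0.38, 2.12, 0.63, 0.69, 1.22 and 0.71 under the same alternatives in that order (YFP2 apart), and 0.72 for genes of at least 100 counts.

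The median rho with *Ren1* was 0.0902 with all counts as denominator, 0.00627 as Pearson's r of log2(CPM + 1), 0.0453 within the limits, 0.0513 without the 2 wells with *Ren1* farthest from its median, 0.0023 given depth and mitochondrial share, and 0.0158 in thinned wells. The number of genes in a larger share of Renin-null wells was 22 within the limits. The cause of these changes was not tested. No paired analysis was possible because the numbers of the wells only name them and no test was run. Each genotype is 1 sample, single wells hold much of many sums, and low genes lie near the depth of a well, so these values describe the wells and not the genotypes.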
